A study of Homo sapiens with 5 samples.

Results

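SIX2, SIX3, SIX4, EYA1, EYA2, EYA3, EYA4, DACH1 and DACH2 were followed through the in vitro differentiation of human embryonic stem cells into GnRH neurons, the hypothalamic neurons that drive reproduction through gonadotropin-releasing hormone (GNRH1). The genes were taken by symbol from the deposited gene tables, and all 9 were present among the 36601 genes listed for D0 to D10 and among the 33538 genes listed for D22 to D26. They were compared across 8 libraries and, at D24 and D26, between GNRH1-high cells, in which GNRH1 made up at least 3000 of every 1000000 UMIs of the cell, and the other cells.

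All cells were of the WA09 embryonic stem cell line with the genotype given as Wild Type. D0 was the undifferentiated line. D5 and D10 cells had received dual SMAD inhibition (dSMADi), which blocks BMP and TGF-β signalling with dorsomorphin and SB431542 and turns the cells to a neural fate, either alone or with 10 µM XAV939, a tankyrase inhibitor that lowers Wnt/β-catenin signalling. D22, D24 and D26 cells came from dSMADi without XAV939, then FGF8, then the Notch inhibitor DAPT, and by the study's methods progenitors were frozen and thawed on the way. Each condition was 1 culture of 1 line. The 5 conditions of D0 to D10 were tagged, mixed before library construction and sequenced as 1 pool. The cells of each condition are called a library here, also where they are a part of that pool. D22, D24 and D26 were each a sample of their own, and their sequencing runs are not given. Day and library thus cannot be told apart there, and no test over replicates exists.

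SIX-family proteins are homeodomain transcription factors, EYA proteins are phosphatases that bind SIX-family proteins as co-activators, and DACH proteins are nuclear co-repressors of the SKI family. The network was described in the fly eye, and in vertebrates it works in the cranial placodes, the thickenings of head ectoderm that give rise to the olfactory epithelium, where GnRH neurons are born, and to other sense organs. SIX3 stands somewhat apart: it marks the anterior neural plate, forebrain and eye field, where it represses Wnt genes together with co-repressors of the TLE family.

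The members lie on 8 chromosomes (GRCh38, GENCODE annotation). SIX3 (chromosome 2, 44941702 to 44946071, plus strand) and SIX2 (chromosome 2, 45005182 to 45009452, minus strand) are 59.1 kb apart. SIX3 overlaps the antisense gene SIX3-AS1 by 215 bases, and the strand setting of the counting is not given in the sources used here, so reads of that stretch are uncertain. The others are SIX4 (chromosome 14, 60709539 to 60724351, minus), EYA1 (chromosome 8, 71197433 to 71592025, minus), EYA2 (chromosome 20, 46894624 to 47188844, plus), EYA3 (chromosome 1, 27970344 to 28088637, minus), EYA4 (chromosome 6, 133240514 to 133532128, plus), DACH1 (chromosome 13, 71437966 to 71867204, minus) and DACH2 (chromosome X, 86148451 to 86832604, plus). Named genes on the opposite strand also overlap EYA2 (EYA2-AS1), EYA4 (TARID, HSPE1P21), DACH1 (H3P36, RPL21P109, RPL35AP31) and DACH2 (COPS8P1, EEF1A1P29).

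DACH1 and DACH2 had log2 ratios of opposite sign for XAV939 at D10 and over D22 to D26, and the 250 bases before the RefSeq start of DACH1 and the first of DACH2 (GRCh38.p14) are given for that reason, 5′ to 3′ on the gene's strand, in lower case with a match to a searched motif in capitals. RefSeq windows were matched for 6 of the 9 members.

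DACH1, chr13:71867205-71867454, minus strand: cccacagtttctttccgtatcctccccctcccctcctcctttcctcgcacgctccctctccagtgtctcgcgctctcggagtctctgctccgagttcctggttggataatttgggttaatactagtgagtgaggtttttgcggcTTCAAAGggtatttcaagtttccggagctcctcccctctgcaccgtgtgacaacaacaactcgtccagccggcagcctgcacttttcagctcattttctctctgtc

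DACH2, chrX:86148201-86148450, plus strand: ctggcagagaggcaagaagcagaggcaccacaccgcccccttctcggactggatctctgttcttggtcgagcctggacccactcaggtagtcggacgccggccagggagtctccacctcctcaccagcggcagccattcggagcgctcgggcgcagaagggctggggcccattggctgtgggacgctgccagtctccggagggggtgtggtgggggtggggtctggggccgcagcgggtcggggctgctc

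The capitals mark TTCAAAG, the reverse complement of CTTTGAA, a core letter pattern of TCF/LEF factors. CTTTGAA on either strand was found in 3.80% of 35116 RefSeq windows of this length. CTTTGAT (2.26% of windows), the homeodomain pattern TAATTA (4.35%) and the SIX-family pattern TCAGGTT (2.79%), each searched on both strands, were in none of the 7 member windows. CTTTGAA and CTTTGAT differ in their last letter, and TAATTA reads the same on both strands. A match describes the letters and is not a site. The GC content was 54% for DACH1 and 69.2% for DACH2, against a median of 58% over all windows. RefSeq has a second start for DACH2 inside the gene, whose window (chrX:86262718-86262967, not printed) had 35.2% GC and 0 CpG, on the other side of the median, against 16 CpG in the printed one.

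After filtering, the libraries held 1009 to 11056 cells and 58073098 to 130440502 UMIs, with a median of 7180 UMIs per cell at D24 and 69455 at D0. Levels are UMIs per 1000000 UMIs (CPM) summed over the cells of a library. Intervals are exact 95% intervals that cover counting error only, and they are too narrow where a few cells hold most UMIs. No barcode was shared among the tagged conditions, which follows from the assignment of the pool's barcodes by tag, and other pairs of libraries shared 1 to 32. The labelled states were checked on marker lists: all 6 pluripotency markers were at 10 CPM or more at D0, and all 7 DLX/GABA and all 6 glutamatergic markers at D26. The defining genes of other possible sources were low from D5 on, where COL1A1 (up to 13.8 CPM) and CITED1 (up to 16.1 CPM) reached 10 CPM in a library. At D0 the sums were 70.6 CPM for surface ectoderm (mostly CDH1), 39.2 for neural crest (mostly FOXD3) and 29.4 for immune and endothelial markers (mostly KDR). They were 20.6 CPM for muscle and mesoderm, 10.9 for mesenchyme and 1.19 for nephron progenitor markers. Over D5 to D26 the summed level of 4 immune and endothelial markers was at most 5.36 CPM, of 5 surface ectoderm markers 0.946 CPM, of 5 neural crest markers 3.99 CPM, of 6 muscle and mesoderm markers 4.15 CPM, of 7 mesenchyme markers 15.7 CPM and of 5 nephron progenitor markers 16.2 CPM, almost all of it CITED1.

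The name placode network was also checked. Of 15 placode genes other than the members, TFAP2A (10.2 CPM at D10 with XAV939 and 10.1 CPM at D22) and TFAP2C (24.5 CPM at D22) were the 2 that reached 10 CPM in any library, and the summed level of the list ran from 3.30 CPM at D26 to 36.9 CPM at D22. The 10 genes of an anterior neural plate and eye field list (RAX, LHX2, PAX6 and others) summed to 132 CPM at D0 and 1087 CPM at D22. The placode list was thus low in all 8 libraries, which holds for the listed genes only. DLX5 was not on it and was counted among the DLX/GABA markers, all 7 of which were at 10 CPM or more at D26. The paper reports DLX5 expression in the olfactory placode region. The list therefore cannot decide whether a placode programme was present, and the members are called by their gene names here.

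SIX3, the forebrain and eye field factor, was at 2.70 CPM at D0, 45.6 at D5 and 30.3 at D10 with dSMADi alone, 82.3 at D5 and 111 at D10 with XAV939, and 226, 101 and 183 CPM at D22, D24 and D26. It was near 0 in stem cells and present in every later library. SIX4, a widely expressed paralog, was at 14.3 CPM at D0, 18.3 and 12.4 with dSMADi alone at D5 and D10, 17.0 and 14.0 with XAV939, and 3.33, 0.485 and 0.654 CPM at D22, D24 and D26. The 5 early libraries were thus above all 3 late ones, although levels before and after D10 come from separate samples with different gene tables. SIX2, a factor of kidney and head mesenchyme, had 1 to 29 UMIs per library and at most 0.222 CPM.

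EYA3 was the steadiest member. It was at 16.6 CPM at D0, between 24.2 and 27.9 CPM in the 4 libraries of D5 and D10, and at 22.5, 26.5 and 23.1 CPM at D22, D24 and D26. EYA2 was at 0.514 CPM at D0, 3.56 and 4.47 with dSMADi alone at D5 and D10, 1.61 and 1.91 with XAV939, and 10.4, 0.727 and 0.452 CPM at D22, D24 and D26. EYA2 was highest in the D22 library, which still held progenitors. EYA4, known for its role in hearing, was at 0.132 CPM at D0, 0.213 and 0.203 with dSMADi alone at D5 and D10, 1.04 and 5.63 with XAV939, and 7.18, 0.0570 and 0.0503 CPM at D22, D24 and D26. EYA4 at D10 without XAV939, at D24 and at D26 rested on 16, 4 and 5 UMIs. EYA1, mutated in branchio-oto-renal syndrome, stayed between 0.686 and 1.83 CPM up to D10 and between 0.114 and 0.191 CPM from D22.

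DACH1 was at 1.28 CPM at D0, 21.1 and 70.1 with dSMADi alone at D5 and D10, 25.2 and 40.6 with XAV939, and 111, 84.7 and 69.3 CPM at D22, D24 and D26. DACH2, its X-linked paralog, was at 2.50 CPM at D0, 0.364 and 1.40 with dSMADi alone, 0.427 and 6.65 with XAV939, and 6.88, 44.6 and 148 CPM at D22, D24 and D26. DACH1 was highest at D22 and DACH2 at D26. With the libraries ordered by level, neighbours whose intervals overlapped included SIX4 at D0 and D10 with XAV939, EYA4 at D5 and D10 with dSMADi alone, DACH2 at D10 with XAV939 and D22, and EYA3 at D22 and D26.

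**Figure D1:**
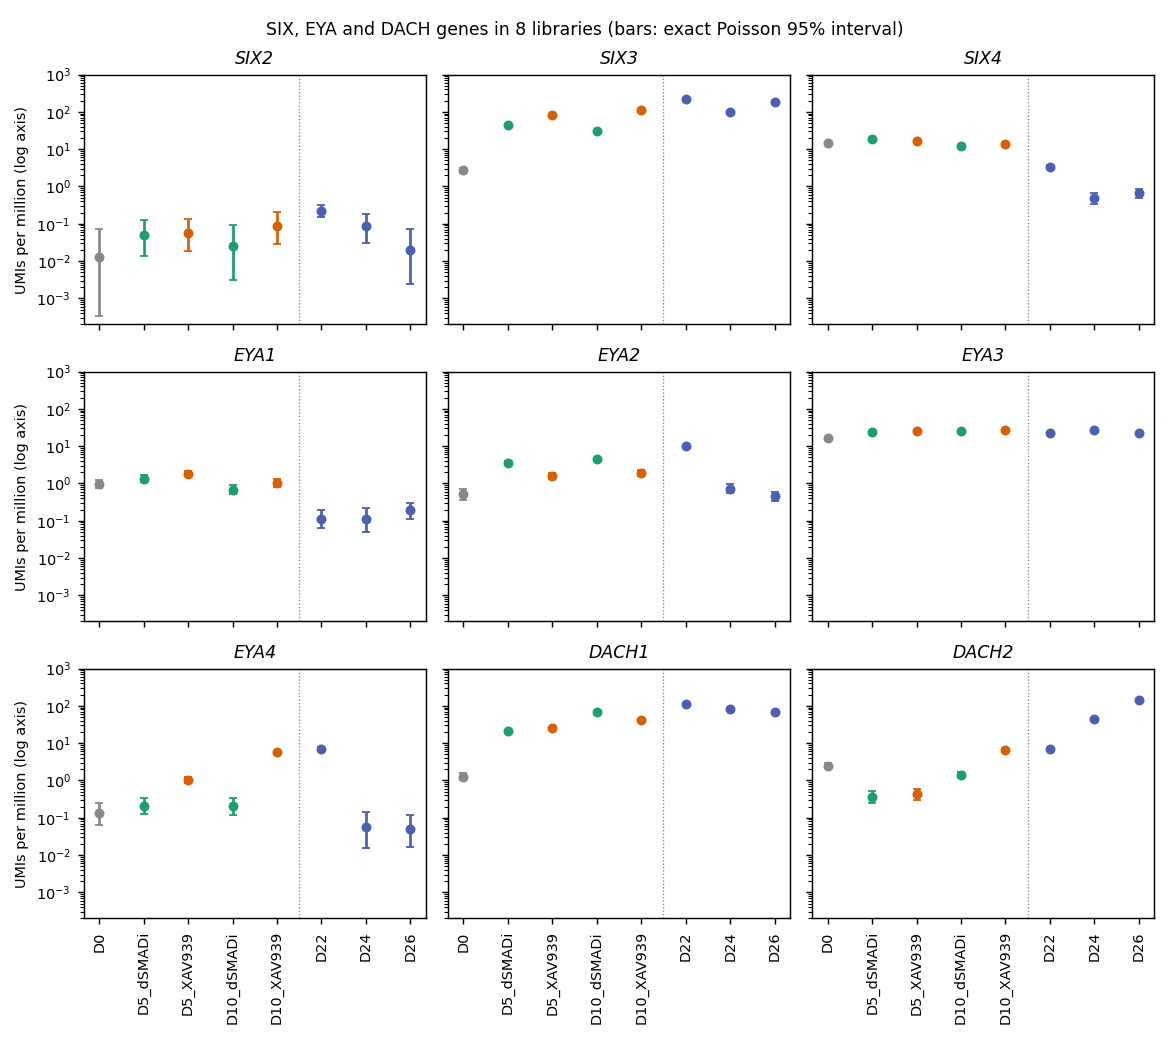
Level of each member in the 8 libraries, in CPM on a log axis that is the same in all panels. Grey is D0, green dSMADi, orange dSMADi with XAV939 and blue D22 to D26. Bars are exact Poisson 95% intervals, and the dotted line parts the tagged pool from D22, D24 and D26. SIX3 goes from 2.70 at D0 to 226 at D22, EYA3 stays between 16.6 and 27.9, and EYA4 is at 5.63 at D10 with XAV939 against 0.203 without.

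The first step set undifferentiated D0 cells beside D5 cells under dSMADi alone. In the D5 cells 4 of 6 pluripotency markers were still at 10 CPM or more. SIX3 was 16.9-fold higher at D5 with dSMADi than at D0 (log2 ratio 4.08, interval 3.87 to 4.29), DACH1 16.5-fold higher (4.04, 3.75 to 4.36) and EYA2 6.94-fold higher (2.79, 2.31 to 3.32), while DACH2 was lower (-2.78, -3.40 to -2.21). A member is called here when the groups are at least 2-fold apart, the exact binomial interval of the ratio leaves out equality, and both groups together hold at least 20 UMIs. By this rule 3 of 8 members measured well enough were higher and 1 was lower, where 13.2% of 18820 genes were higher and 23.1% lower, 36.3% in either direction. The median log2 ratio was 0.62 for the members and -0.13 for all genes. The remaining 4 were SIX4 (0.35), EYA1 (0.46), EYA3 (0.54) and EYA4 (0.70, interval -0.51 to 1.98). In summed levels, fewer cells expressing a gene and less RNA per cell cannot be told apart.

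Between D5 and D10 under dSMADi alone, the DACH genes were the members that moved up. DACH1 was 3.33-fold higher at D10 (log2 ratio 1.73, interval 1.65 to 1.81) and DACH2 was 3.84-fold higher (1.94, 1.34 to 2.58), from 29 to 110 UMIs. These were 2 of 8 members, with 11.4% of 18695 genes higher. No member was called lower, against 3.26% of genes, although EYA1 was just inside the 2-fold limit (-0.98, -1.48 to -0.50) and passed it at -1.04 with likely doublets left out and at -1.14 with mitochondrial, ribosomal protein and GNRH1 counts removed from the totals. SIX3 stood at a log2 ratio of -0.59 and SIX4 at -0.56. With XAV939, DACH2 was 15.6-fold higher at D10 than at D5 (3.96, 3.47 to 4.49) and EYA4 5.43-fold higher (2.44, 2.10 to 2.79). That was again 2 of 8, with 8.70% of 18195 genes higher, and 0 members were lower, against 4.09% of genes. SIX3 stood at 0.44 and DACH1 at 0.69 there. The median over members was 0.02 without and 0.34 with XAV939, against 0.24 and 0.16 for all genes.

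The comparison of XAV939 with dSMADi alone asked how the members stood when Wnt signalling was lowered. EYA4 and EYA2 differed in opposite directions on both days, and SIX3 and DACH2 passed the 2-fold limit at D10. At D5, EYA4 had 90 UMIs with XAV939 and 17 without (log2 ratio 2.28, interval 1.52 to 3.12), and EYA2 had 140 and 284 (-1.14, -1.44 to -0.85). SIX3 was 1.81-fold apart (0.85, 0.80 to 0.91), inside the limit. So 1 member of 8 was higher and 1 lower, where 2.19% of 18291 genes were higher and 2.26% lower, 4.45% in either direction.

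At D10, EYA4 had 327 UMIs with XAV939 and 16 without, a 27.7-fold difference (log2 ratio 4.79, interval 4.07 to 5.62). SIX3 had 6467 and 2386 UMIs, 3.68-fold (1.88, 1.81 to 1.95). DACH2 had 386 and 110 UMIs, 4.76-fold (2.25, 1.94 to 2.57). These 3 of 8 members were higher with XAV939, and EYA2, with 111 against 352 UMIs, was the member that was lower (-1.23, -1.55 to -0.91), where 3.08% of 18437 genes were higher and 5.44% lower, 8.52% in either direction. DACH1 was at 40.6 CPM with XAV939 and 70.1 CPM without (-0.79, -0.86 to -0.72), which did not reach 2-fold. EYA3 (0.09, -0.00 to 0.19), SIX4 (0.18) and EYA1 (0.59, 0.04 to 1.15) were closer together in the conditions. The members' median log2 ratio was 0.24 at D5 and 0.38 at D10, against 0.05 and -0.01 for all genes.

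**Figure D2:**
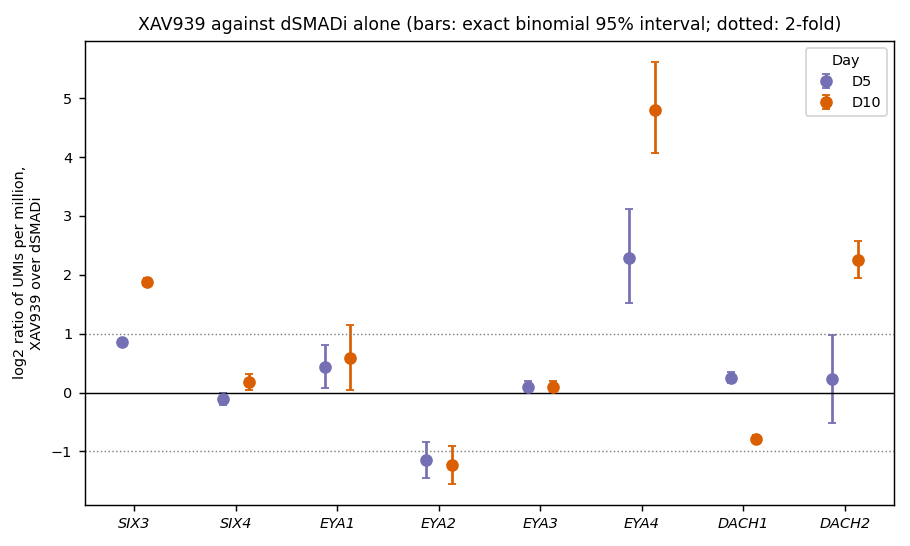
Log2 ratio of CPM with XAV939 over dSMADi alone for the 8 members with enough UMIs, at D5 (purple) and D10 (orange), with exact binomial 95% intervals and dotted lines at 2-fold. EYA4 is highest on both days (2.28 and 4.79), EYA2 is below the lower line on both (-1.14 and -1.23), and SIX3 and DACH2 lie above the upper line at D10.

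In cells thinned to 1500 UMIs each, so that depth is equal, a SIX3 UMI was seen in 15.2% of cells with XAV939 at D10 and in 3.81% without (unthinned 86.5% and 54.0%). At D5 the thinned shares were 10.7% and 6.78%, and at D0 0.0991%. For DACH1 the D10 shares were 6.41% with XAV939 and 9.89% without. The order of the shares was that of the CPM levels for both genes.

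The D5 and D10 cells were also clustered together, a step chosen after seeing the data, and the conditions formed mostly separate clusters. The XAV939 cells of D10 fell almost whole into 1 unnamed cluster led by genes such as LINC01551 (96.9% of the library), in which SIX3 was at 112 CPM and EYA4 at 5.67 CPM. The D10 cells with dSMADi alone lay in 2 clusters, in both of which SIX3 was at 30.4 CPM, while EYA4 was at 0.228 and 0.168 CPM. The XAV939 cluster is nearly the whole library, so its levels repeat the library's. An EYA4 UMI was in 282 of 2168 cells with XAV939 and in 15 of 2416 without, and a SIX3 UMI in 1875 and 1305, at the unthinned depth of each library. A small NNP-like cluster of 79 cells held 62 cells of the XAV939 library, with DACH1 at 128 CPM and EYA2 at 11.1 CPM, from 17 UMIs.

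Relatives of the members were read from a list of 10 SIX-family and co-factor genes. SIX6, the paralog of SIX3 in the eye field, was at 17.9 CPM with XAV939 and 3.11 without at D5 (log2 ratio 2.53) and at 3.29 and 0.292 CPM at D10 (3.49). At D5 SIX6 was the 1 gene of the 10 called, and at D10 it was 1 of 2 called among 9 tested, the other being under 1 CPM in both libraries. SIX5 was at 23.2 CPM with XAV939 and 22.9 without at D10. TLE4, a Groucho co-repressor, was at 633 and 438 CPM. In the anterior neural plate list, VAX1 had 963 UMIs with XAV939 against 5 without at D10, and 3 of 10 genes were higher and 0 lower on each day. In the placode list, 2 of 9 genes tested were higher and 4 lower at D5, and 4 were higher and 3 lower at D10, among them TFAP2A with 592 UMIs against 63 (3.67). LINC01833, a non-coding gene 2.50 kb from SIX3, followed the order of SIX3 at D5 and D10, with 29.6 and 41.7 CPM with XAV939 and 12.4 and 10.1 CPM without.

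From D22 to D24, the days after DAPT was begun, all 3 SIX-family members, EYA2 and EYA4 were lower. EYA4 went from 936 UMIs to 4 (log2 ratio -6.98, interval -8.85 to -5.61). EYA2 had 1353 and 51 UMIs (-3.83, -4.27 to -3.43), SIX4 434 and 34 (-2.78, -3.33 to -2.27), SIX3 29526 and 7077 (-1.17, -1.20 to -1.13) and SIX2 29 and 6 (-1.38, -2.94 to -0.08). With these 5 lower and DACH2 higher (2.69, 2.59 to 2.80), 6 of 9 members were called, where 17.2% of 18262 genes were lower and 13.6% higher. The members' median was -1.17 against -0.11 for all genes. DACH1 stood at -0.39, EYA3 at 0.23 and EYA1 at -0.01 (-1.46 to 1.32). The SIX2 call was lost when each cell was given the same weight (-1.04, -2.60 to 0.25).

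Other genes of these lists went along at D24. SIX5 had 1455 UMIs at D22 and 30 at D24 (log2 ratio -4.71), and it was the 1 family and co-factor gene called lower of 7 tested, with SKIL called higher. In the anterior neural plate list 9 of 10 genes were lower, among them FEZF2 (-4.96), and in the placode list 2 of 7 were higher and 3 lower. The summed level of 6 proliferation markers was 2282 CPM at D22 and 122 CPM at D24, and that of 6 neurogenic precursor markers 2514 and 138 CPM. Their part in the members' differences was not tested.

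From D24 to D26, DACH2 was 3.32-fold higher (log2 ratio 1.73, interval 1.68 to 1.79), the 1 member of 7 called higher, where 10.5% of 17699 genes were higher, and 0 were lower, where 5.66% of genes were. SIX3 was at 101 and 183 CPM (0.86, 0.82 to 0.90), within 2-fold. In thinned cells a DACH2 UMI was seen in 1.06%, 6.19% and 19.1% of cells at D22, D24 and D26, and a SIX3 UMI in 27.4%, 12.6% and 20.03%. DACH2 thus went one way over the 3 libraries, and SIX3 was lowest in the middle one.

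The cells of D22 to D26 formed 14 clusters when the members, GNRH1 and the list genes were left out of the clustering. Clusters were named from markers as dividing progenitors (PNP-like), neurogenic precursors (NNP-like), DLX and GAD2 neurons (GnRH-GABA-like), TBR1 and PPP1R17 neurons (Glut-like) and IRX-like cells, and 6 of the 14 were left unnamed, among them 1 of 8172 cells that held most of D24. Differences between clusters are descriptions, since the clusters were drawn from the same cells.

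At D22, EYA2 and EYA4 had opposite orders in precursors and progenitors. In 4211 NNP-like and 1971 PNP-like cells EYA2 reached 17.3 and 4.26 CPM (log2 ratio 2.02), and NNP-like cells, 44.2% of the library, held 68.4% of its UMIs. EYA4 had the reverse order, 4.74 and 12.9 CPM (-1.45), and PNP-like cells, 20.7% of the library, held 46.7% of its UMIs. EYA3 was at 24.96 and 19.3 CPM, within 2-fold, and EYA1 had 5 and 3 UMIs, too few to compare. With finer clusters (resolution 1), EYA4 was at 10.2 CPM in an NNP-like cluster of 1890 cells and at 10.7 CPM in a PNP-like cluster of 749 cells, with overlapping intervals (8.93 to 11.5 and 8.71 to 12.9 CPM).

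At D22, DACH1 was higher in precursors than in progenitors, while the DACH2 call depended on the clustering. DACH1 was at 164 CPM in neurogenic precursors against 66.2 CPM in dividing progenitors (log2 ratio 1.31), and DACH2 at 3.22 against 6.59 CPM (-1.03). Of 8 members 2 were higher and 2 lower in NNP-like cells, where 8.16% and 9.92% of 16012 genes were. With classes from the finer clusters at resolution 1, chosen after seeing the data, DACH2 was at 4.46 and 6.56 CPM and lost its call (-0.56, -0.81 to -0.30), DACH1 kept it (1.19), and SIX2 gained one on 22 and 3 UMIs (1.91, 0.17 to 4.29), which made 3 members higher and 1 lower, where 7.90% and 8.85% of 16336 genes were. DACH2 varied within both classes at that resolution, with 8.37 CPM in the NNP-like cluster of 1890 cells and 3.83 CPM in the PNP-like cluster of 749 cells, the reverse of the pooled order. SIX3 was at 281 and 219 CPM (0.36) and SIX4 at 3.54 and 4.76 CPM (-0.43), both within 2-fold. IRX genes mark more posterior neural tissue, and SIX3 stood at 36.7 CPM in IRX-like cells.

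At D26 the SIX3 level was 540, 108 and 31.7 CPM in the 1765 GnRH-GABA-like, 8544 Glut-like and 266 IRX-like cells, in that order. GnRH-GABA-like cells, 16.0% of the library, held 52.9% of its SIX3 UMIs and 77.8% of its EYA2 UMIs, the latter 35 of 45. DACH1 stood at 34.8, 73.0 and 181 CPM in these classes, an order opposite to SIX3. DACH2 was at 93.0, 165 and 46.2 CPM in the same classes. Against Glut-like cells, SIX3 (log2 ratio 2.32) and EYA2 (4.89, 35 against 5 UMIs) were higher and DACH1 lower (-1.07) in GnRH-GABA-like cells, 2 and 1 of 6 members, where 3.85% and 5.27% of 16211 genes were. At resolution 1 the DACH1 ratio was -1.05, and DACH1 differed within the GnRH-GABA-like class, at 14.7 CPM (12.2 to 17.7) in a cluster of 899 cells and 51.7 CPM (47.3 to 56.4) in one of 802 cells, nearly all of D26, beside 61.7 to 81.7 CPM in the Glut-like clusters. At D24 the levels were 486, 89.0 and 18.1 CPM for SIX3 and 23.0, 49.8 and 133 CPM for DACH1 in GnRH-GABA-like, Glut-like and IRX-like cells, the same order as at D26. The Glut-like class was 390 cells at D24, 4.28% of the library. Unnamed clusters held 84.3% of the D24 cells, with SIX3 at 76.4 CPM and DACH1 at 87.9 CPM.

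**Figure D3:**
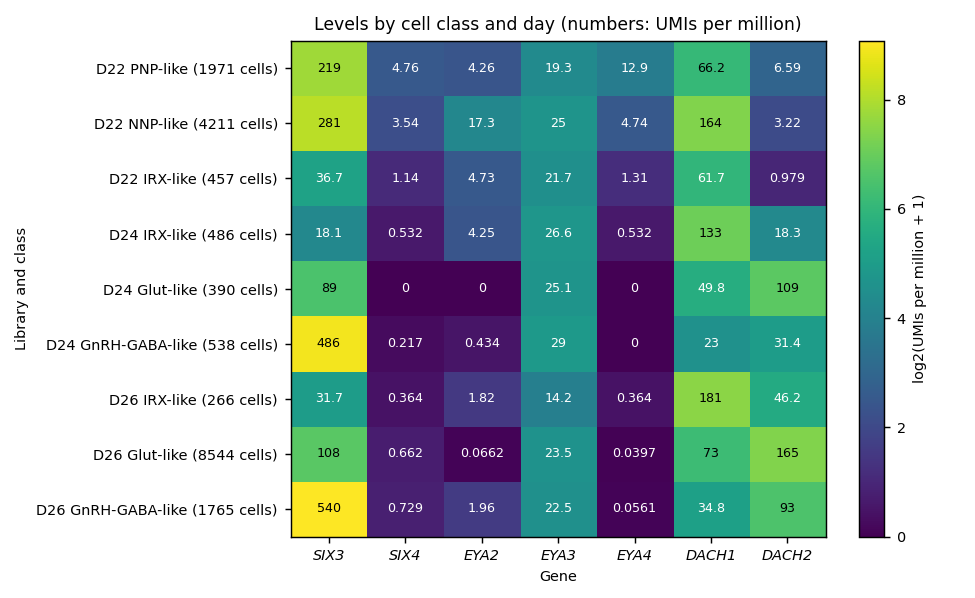
Level of 7 members in the named cell classes of each day, in CPM (numbers) and as log2(CPM + 1) (colour), with the number of cells of each class. SIX3 is highest in GnRH-GABA-like cells (486 at D24 and 540 at D26), EYA2 in NNP-like cells of D22 (17.3), EYA4 in PNP-like cells of D22 (12.9) and DACH1 in IRX-like cells of D26 (181).

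In cells thinned to 1500 UMIs, SIX3 was seen in 52.4% of GnRH-GABA-like, 14.5% of Glut-like and 6.02% of IRX-like cells at D26, and in 48.7%, 13.3% and 2.26% at D24, with median depths of 9286, 8393 and 9495.5 UMIs at D26 and 8049.5, 6587.5 and 6870.0 UMIs at D24. Of these classes the IRX-like cells had the lowest SIX3 share on both days, and free RNA was not measured. DACH1 was seen in 4.42%, 10.7% and 23.7% of these classes at D26.

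Over all 14 clusters, EYA3 stayed between 18.9 and 27.5 CPM. SIX3 ran from 24.7 CPM in an IRX-like cluster to 530 CPM in the GnRH-GABA-like cluster, and DACH2 reached 213 CPM in an unnamed cluster of 152 cells led by CALB1. EYA4 was at 9.56 CPM in an unnamed D22 cluster of 1870 cells whose leading genes included DLX1, and at 12.4 and 14.1 CPM in the PNP-like clusters. EYA3 was therefore the member with the least spread over cell states.

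The comparison that the differentiation is aimed at sets GNRH1-high cells, 345 at D24 and 999 at D26, against the 8762 and 10057 others. SIX3 was higher in GNRH1-high cells on both days, DACH1 was lower at D24 and within the 2-fold limit at D26, EYA3 differed by less than its counting error, and SIX2, SIX4, EYA1 and EYA4 were at 5 UMIs or fewer in GNRH1-high cells. At D24, SIX3 was at 445 CPM in GNRH1-high and 85.2 CPM in other cells, 5.22-fold higher (log2 ratio 2.38, interval 2.30 to 2.47), and DACH1 was at 22.2 and 87.5 CPM (-1.98, -2.34 to -1.63). Of 6 members with enough UMIs, 1 was higher and 1 lower, where 2.53% of 15520 genes were higher and 6.22% lower, 8.75% in either direction. DACH2 was at 34.7 and 45.0 CPM (-0.38), EYA3 at 28.1 and 26.4 CPM (0.09, -0.24 to 0.40), and EYA2 had 2 and 49 UMIs (-0.16, -3.25 to 1.77). SIX4 had 0 UMIs in GNRH1-high cells, with an upper Poisson limit of 1.21 CPM, and 0.507 CPM in the others. Markers moved with this comparison too. SOX2, a progenitor gene, was at 108 CPM in GNRH1-high and 13.1 CPM in other cells at D24 (8.29-fold) and at 26.1 and 8.82 CPM at D26 (2.96-fold), both called. The neuron genes DCX (log2 ratio -0.45 and -0.13) and STMN2 (-0.04 and -0.00) were within 2-fold on both days. The 6 Glut-like markers summed to 140 and 977 CPM at D24 and to 276 and 1321 CPM at D26, and their part in the members' ratios was not tested.

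At D26, SIX3 was at 519 CPM in GNRH1-high and 144 CPM in other cells, 3.61-fold higher (log2 ratio 1.85, interval 1.80 to 1.90). EYA2 had 24 UMIs in 21 of 999 GNRH1-high cells and 21 UMIs in 19 of 10057 others, 9.80-fold by level (3.29, 2.39 to 4.21). These 2 of 6 members were higher, where 2.79% of 16470 genes were, and 0 members were lower, where 5.08% of genes were, 7.86% in either direction. DACH1 was at 40.1 and 72.7 CPM (-0.86, -1.01 to -0.72), DACH2 at 96.7 and 154 CPM (-0.67) and EYA3 at 22.1 and 23.2 CPM (-0.07). DACH1 passed the limit at -1.25 with likely doublets left out, which were 13.3% of GNRH1-high cells and 6.88% of the others. Median log2 ratios were -0.27 at D24 and -0.28 at D26 over members and -0.18 and -0.12 over all genes.

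The same direction was seen in thinned cells. A SIX3 UMI was found in 44.1% of GNRH1-high and 11.5% of other cells at D24 (unthinned 91.0% and 39.7%), and in 50.8% and 17.3% at D26 (unthinned 90.6% and 54.8%), against 2.26% and 6.02% in IRX-like cells. For DACH1 the thinned shares were 2.61% and 12.4% at D24 and 5.41% and 10.2% at D26.

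GNRH1-high cells mostly express DLX genes, markers of forebrain GABAergic neurons: 64.9% at D24 and 70.8% at D26 had at least 500 CPM of summed DLX UMIs, against 1.80% and 7.12% of the other cells. The members were therefore also read against DLX-positive cells with GNRH1 under 500 CPM, 125 at D24 and 493 at D26. SIX3 was at 445 and 423 CPM at D24 (log2 ratio 0.07, interval -0.09 to 0.23) and at 519 and 528 CPM at D26 (-0.02, -0.09 to 0.04). SIX3 was thus at a similar level in DLX-positive cells with little GNRH1. The intervals lay inside 2-fold, but they cover counting error only and set no bound on a difference between cells or cultures. No member was called on either day, of 4 tested at D24 and 5 at D26, where 1.92% and 0.943% of genes were higher and 2.08% and 1.52% lower.

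DACH1 stood at 22.2 CPM in GNRH1-high and 34.5 CPM in DLX-positive GNRH1-low cells at D24 (log2 ratio -0.63, interval -1.24 to -0.00) and at 40.1 and 23.0 CPM at D26 (0.80, 0.49 to 1.12). DACH2 stood at 34.7 and 17.8 CPM at D24 (0.97, 0.24 to 1.77), from 106 and 18 UMIs, and at 96.7 and 94.03 CPM at D26 (0.04). EYA2 had 24 and 5 UMIs at D26 (1.13, -0.29 to 2.88). The D24 values for the DACH genes rest on few UMIs and moved across the 2-fold limit with the settings. Markers of other cells moved with this comparison. The 6 IRX-like markers summed to 29.4 CPM in GNRH1-high and 218 CPM in DLX-positive GNRH1-low cells at D24 and to 38.4 and 127 CPM at D26, and the 7 mesenchyme markers to 0.327 and 36.5 CPM at D24 and to 0.578 and 1.06 CPM at D26. The 6 PNP-like markers of dividing progenitors summed to 67.0 and 57.2 CPM at D24 and to 20.8 and 103 CPM at D26. In all cells under 3000 CPM of GNRH1 the IRX-like sums were 188 CPM at D24 and 144 CPM at D26. IRX-like cells had the highest DACH1 of the named classes on both days, and the part of these cells in the DACH1 ratios was not tested.

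**Figure D4:**
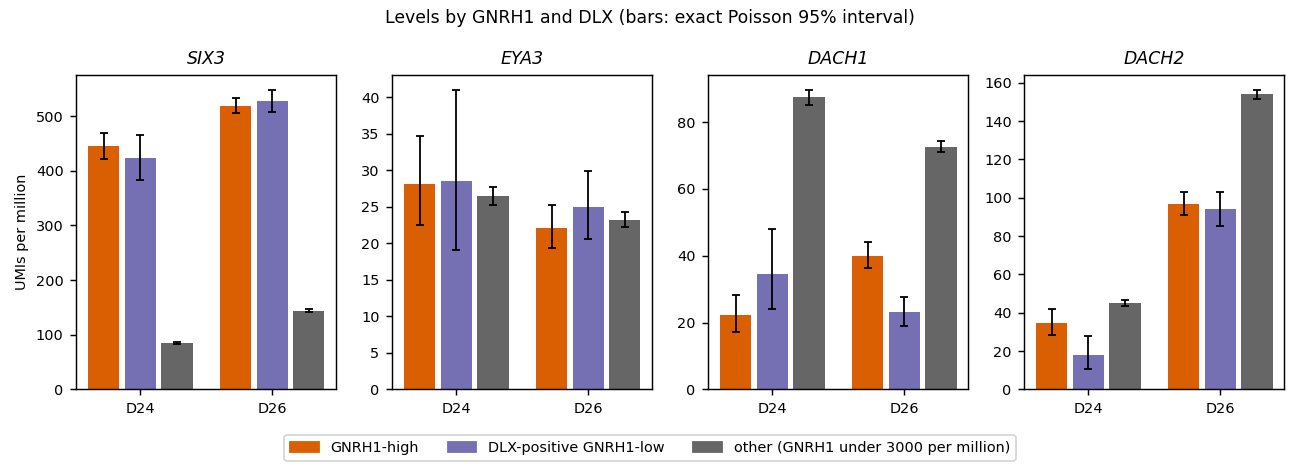
Level of SIX3, EYA3, DACH1 and DACH2 in GNRH1-high cells (orange), DLX-positive GNRH1-low cells (purple) and all cells under 3000 CPM of GNRH1 (grey; these include the purple group), in CPM with exact Poisson 95% intervals. SIX3 is as high in the purple as in the orange group (423 and 445 at D24, 528 and 519 at D26) and at 85.2 and 144 in the grey group.

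Splitting the cells with GNRH1 at 3000 CPM or more and those under 500 CPM by DLX, a reading chosen after seeing the data that leaves out the 108 cells at D24 and 477 at D26 in between, gave SIX3 levels at D24 of 447 CPM with both, 440 CPM with GNRH1 alone, 423 CPM with DLX alone and 76.6 CPM with neither. At D26 these were 563, 433, 528 and 109 CPM. SIX3 was high in each group at or above the limit of 1 of the markers. Cells counted without DLX were under 500 CPM of summed DLX and can still hold DLX UMIs. The GnRH-GABA-like cluster held 94.8% and 92.9% of GNRH1-high cells, while 64.9% and 70.8% reached the DLX limit. Within DLX-positive cells alone, GNRH1-high against other cells gave a log2 ratio of 0.01 for SIX3 at D24 and 0.07 at D26. Within cells under 500 CPM of DLX it gave 2.49 and 1.96, which does not show SIX3 levels in cells without DLX. DACH1 stood at -0.79 and 0.23 within DLX-positive cells and at -1.50 and -0.39 within cells under the DLX limit. Its D24 call was thus lost among the former. For DACH1 the same 4 groups stood at 17.0, 31.4, 34.5 and 88.6 CPM at D24 and at 30.8, 58.3, 23.0 and 76.5 CPM at D26. Likely doublets were 24.7% of the D26 cells with GNRH1 alone and 8.63% of those with both, and their part in the D26 DACH1 levels was not tested.

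The GnRH-GABA-like cluster held 94.8% of GNRH1-high cells at D24 and 92.9% at D26. Within it, again chosen after seeing the data, SIX3 was at 462 CPM in 327 GNRH1-high and 525 CPM in 211 other cells at D24 (log2 ratio -0.18, interval -0.31 to -0.06), and at 545 CPM in 928 and 534 CPM in 837 cells at D26 (0.03, -0.03 to 0.09). DACH1 stood at -0.67 (-1.25 to -0.09) at D24 and at 0.11 (-0.12 to 0.34) at D26. Inside this cluster 0 of 4 members at D24 and 0 of 5 at D26 were called, where 0.909% and 0.528% of genes were higher and 1.63% and 1.22% lower.

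Across 5 bins of GNRH1 per cell, also chosen after seeing the data, SIX3 at D24 was at 81.9 CPM under 500 CPM, 335 CPM from 500 to 3000, 451 CPM from 3000 to 10000, 426 CPM from 10000 to 30000 and 466 CPM at 30000 or more. At D26 the same bins held 133, 374, 465, 508 and 560 CPM. The cells just under and just over the 3000 limit were thus nearer to each other than to the lowest bin. DACH1 went the other way, from 87.8 CPM in the lowest bin to 9.56 CPM in the highest at D24 and from 73.5 to 33.5 CPM at D26. The value of 9.56 CPM rested on 9 UMIs (interval 4.37 to 18.2 CPM). DACH2 went from 45.0 to 28.7 CPM and from 156 to 82.0 CPM. The share of DLX-positive cells over the bins was 1.44%, 30.6%, 54.2%, 70.3% and 64.3% at D24, and its part in these levels was not tested.

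**Figure D5:**
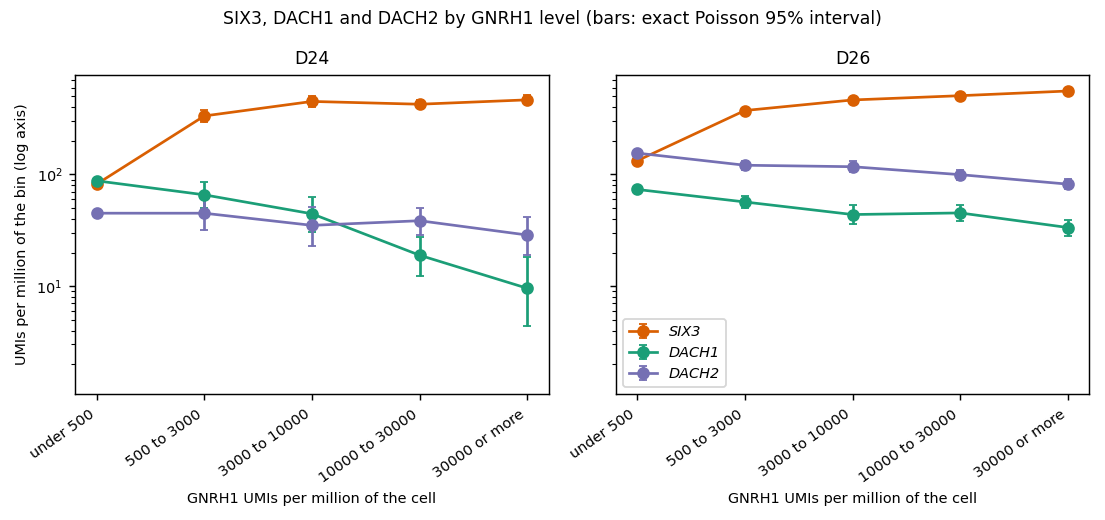
Level of SIX3, DACH1 and DACH2 in CPM (log axis) in cells binned by the GNRH1 level of the cell in CPM, at D24 and D26, with exact Poisson 95% intervals. SIX3 is at 81.9 and 133 in the lowest bin and at 466 and 560 in the highest. DACH1 runs from 87.8 to 9.56 (9 UMIs) at D24 and from 73.5 to 33.5 at D26.

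Among co-factors, TLE3 (log2 ratio 1.44) and TLE5 (1.03) were higher in GNRH1-high cells at D24, 2 of 7 genes tested, and TLE4, at 862 and 386 CPM, was higher at D26 (1.16), 1 of 6. In the anterior neural plate list PAX6 was higher in GNRH1-high cells at D24, and LHX2, VAX1, FEZF1 and FEZF2 were lower on both days, of 8 tested. In the placode list 1 of 5 genes tested was lower at D24 (TFAP2A) and 2 of 4 at D26 (TFAP2A and GATA3), all under 3 CPM. Against DLX-positive GNRH1-low cells 0 of 6 family and co-factor genes were called on either day, and of the anterior list OTX2 was higher at D24 and VAX1 lower at D26.

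Genes with a pattern most like each member's are given as a description, by the Pearson correlation of log2(CPM + 1). Over the 14 clusters and 10317 genes, the genes most like SIX3 included its neighbour LINC01833 (r = 0.903). EYA2 was most like KIF19 (0.940), WFIKKN1 (0.928) and HES6 (0.925), of which HES6 marks neurogenic precursors. DACH1 was most like NXPH4 (0.866), DACH2 like CISD1 (0.983) and EYA3 like GNAI2 (0.816). Clusters share libraries and depth, so these values have no p. Over the 8 libraries and 10710 genes the most similar genes were BRD1 for SIX3 (0.967), FSBP for SIX4 (0.996), UFL1 for EYA2 (0.928), CDH6 for EYA3 (0.957), SPACA9 for DACH1 (0.986) and COMMD9 for DACH2 (0.990). The points came from the tagged pool and the separate samples of D22, D24 and D26.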

How the data were processed

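Gene counts of 10x Genomics 3′ single-cell libraries (Reagent Kit v3) were deposited by the authors as filtered matrices of UMI counts per gene and cell, aligned to GRCh38. The submitters' notes name Cell Ranger 3.1, and the file headers name 3.1.0 for D22 to D26 and 6.1.2 for the tagged pool. The pool's 5 conditions were assigned by tag; 8.11% to 13.5% of its UMIs were tag counts and were left out of totals.

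Cells were kept by the study's limits on UMIs, genes, complexity and mitochondrial share. The UMI minimum was 30000 at D0, 10000 at D5 and D10 and 1500 from D22. At D10 these limits left 2416 of 2778 barcodes with dSMADi alone and 2168 of 2638 with XAV939. The paper reports 2778 and 2638 cells as analysed there. At D0 the study's complexity limit left 1 of 1292 barcodes and was dropped after seeing the file, leaving 1009. Scrublet (in scanpy 1.11.5) scored doublets, which were kept and left out as an alternative at a score of 0.25; its automatic cut had marked 3 cells each at D24 and D26, so the cut was set by hand. UMIs were summed over cells, divided by the total and multiplied by 1000000. Levels have exact Poisson intervals, ratios exact binomial intervals of the split of UMIs and shares Clopper-Pearson intervals, all at 95% (scipy 1.17.1, numpy 2.4.6, pandas 2.3.3, Python 3.11.15). Ratios were called at 2-fold or more with an interval that leaves out equality and at least 20 UMIs, and were computed over all genes. With 1 library per condition no p-value was computed. The ratio code was tested on simulated data. D22 to D26 were clustered with leidenalg 0.10.2 (2000 variable genes, 30 components, 20 neighbours, resolution 0.5). D5 and D10 were clustered together at resolution 0.3 after seeing the data.

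All 9 members were read in every comparison, and list genes were named where called. The genes most like a member were the 3 with the highest correlation. They were sought for members at 10 CPM or more in a library or, over the clusters, in a cluster. The members, marker lists and gene lists were chosen with earlier results of these data known. Counts from 3′ ends do not scale with gene length, so levels were not compared between genes. Alternatives were other cell filters, doublets left out, equal weight per cell, other totals, other count minimums, other GNRH1 limits, resolution 1 and unthinned shares. Some genes named by these rules are not reported here.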

Additional observations from a re-analysis of the deposited data

Results flagged for a closer look

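In 4 cases a member's log2 ratio had opposite signs under the same contrast in 2 settings, each with 1 library per condition, and in none was the difference between the ratios tested. DACH1 in GNRH1-high against DLX-positive GNRH1-low cells stood at -0.63 at D24 and 0.80 at D26. SIX3 at D10 against D5 stood at -0.59 with dSMADi alone and 0.44 with XAV939. DACH1 with XAV939 against dSMADi alone stood at 0.26 at D5 and -0.79 at D10. SIX4 in the same contrast stood at -0.11 at D5 and 0.18 at D10, and both of its values are small.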

How the results depend on the processing

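No paired analysis was possible because each condition had 1 library and the labels give no replicates. The 185 recomputed values of results that answer a comparison are counts, which cannot change sign. Of these, 177 were the same, a count being the same when within 1.5 times of the reported one. The other 8 each gave 1 member called where the main value was 0. GNRH1-high against DLX-positive GNRH1-low cells at D24 gave 1 higher (DACH2) without a filter on cells, with equal weight per cell and with the limit at 1000 CPM, and 1 lower (DACH1) with doublets left out and with the limit at 10000 CPM. GNRH1-high against other cells at D26 gave 1 lower (DACH1) with doublets left out, and D10 against D5 with dSMADi gave 1 lower (EYA1) with doublets left out and with GNRH1, mitochondrial and ribosomal protein genes out of the total. The cause was not tested. SIX2 at D24 against D22 (-1.38) lost its call with equal weight per cell (-1.04, -2.60 to 0.25), which took the members lower in that comparison from 5 to 4. Members at 10 CPM or more at D22 went from 4 to 5 with the total without GNRH1, mitochondrial and ribosomal protein genes. DACH2 in NNP-like against PNP-like cells at D22 (-1.03) lost its call with classes from resolution 1 (-0.56), an alternative chosen after seeing the data. Of 582 values for single members 514 were the same and 68 moved. Those that moved were mostly unthinned shares or came from the total without GNRH1, mitochondrial and ribosomal protein genes. A reversal was counted only for ratios called in the main setting, and there were 0. Shares, levels and ratios that were not called could not be counted as reversed. SIX3 in GNRH1-high against other cells kept its call under each other filter, total, weight and GNRH1 limit, and was within 2-fold among DLX-positive cells alone (0.01 and 0.07), an alternative chosen after seeing the data.

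Limits: each condition is 1 culture of 1 line, so intervals cover counting error only and give no spread between cultures. D22, D24 and D26 were separate samples, their sequencing runs are not given, and they differ from the tagged pool in gene table. Levels under about 0.1 CPM rest on fewer than 20 UMIs, and so do some higher ones. Among these are EYA4 at D10 with dSMADi alone (16 UMIs) and DACH1 in the highest GNRH1 bin at D24 (9 UMIs).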
